A study of Homo sapiens with 6 samples.

Results

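The genes of the 26S proteasome subunits were measured by RNA sequencing in Het1A cells that had been exposed to acid and bile acids and in control cells. Members were taken as the protein-coding genes whose symbol is PSMA, PSMB, PSMC or PSMD followed by a number, without the interferon-inducible PSMB8 and PSMB9, which gave 37 of the 58735 genes in the table. They hold 17 genes of the core particle, 17 genes of the regulatory particle and 3 chaperones that help to build its base. Het1A is a human line from normal oesophageal epithelium, immortalised with SV40 large T antigen and obtained from ATCC. The 3 bile acid libraries came from cells put once daily, on 5 days and for 10 min each time, into KSFM, a keratinocyte medium, brought to pH 4.0. That medium carried mixed bile acids at 100 µM, namely deoxycholic acid and its conjugate glycodeoxycholic acid, glycochenodeoxycholic acid, taurocholic acid and glycocholic acid. The 3 control libraries came from cells given the vehicle, 0.1% DMSO, and no label says that the control medium was acidified, so acid and bile acid cannot be told apart. All cells were kept in medium with 1% serum from 48 h before the first exposure, and RNA was taken 24 h after the last one. The labels call the 3 libraries of a group biological replicates without saying how the cultures were separated, so p-values measure the spread between these libraries, which may be in part technical.

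The proteasome is the protease that degrades proteins tagged with ubiquitin in the cytosol and nucleus. Its core particle is a barrel of stacked rings in which outer rings of α subunits gate the entry and inner rings of β subunits cut the protein, with PSMB5, PSMB6 and PSMB7 carrying the active sites. The regulatory particle caps the barrel: a ring of ATPases unfolds the substrate, non-ATPase subunits of the base bind ubiquitin, and the lid cuts the ubiquitin chain off. When proteasome activity runs short, the membrane-bound transcription factor NFE2L1 (NRF1) is processed and raises the transcription of most subunit genes together, through antioxidant response elements. NFE2L2 (NRF2) does so for some of them after oxidative stress.

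Library totals ran between 27008714 and 28497721 counts in the bile acid group and between 21006677 and 26218597 counts in the control group. Control 2 stood apart from the other 5 libraries. It held a count for 19101 genes, against 24174 to 25337 in the others, and the 37 members took 0.802% of its counts. In the bile acid libraries the members took 0.488% to 0.542% of the counts, and in controls 1 and 3 they took 0.451% and 0.481%. Fold changes of the members are given with and without control 2, a choice made with earlier results of these data known. Control 2 lay above both other controls for 31 of the 35 tested members. Leaving it out thus raises their fold changes by construction. Of the cell type markers, 4 of 4 general epithelial genes reached a mean of at least 1 FPKM, with summed levels of 178, 158 and 163 FPKM in bile acid libraries 1, 2 and 3, against 127, 281 and 113 FPKM in controls 1, 2 and 3. Set against controls 1 and 3 alone, this sum was thus higher in all 3 bile acid libraries, as were KRT8 and KRT18 among its genes. Its other genes, EPCAM and CDH1, overlapped between the bile acid libraries and controls 1 and 3. Of 8 squamous markers, only JUP and PERP reached that level, JUP being higher in every bile acid library than in every control, and TP63 had 3 counts or fewer in every library, so the label of oesophageal epithelium was not matched by squamous markers. Of the other lists, 2 of 6 fibroblast markers (COL1A1 and PDGFRB) reached it, with summed levels of 10.2 to 21.8 FPKM in bile acid libraries and 4.81 to 19.6 FPKM in controls, and their part in the results was not tested. No marker of leukocytes or endothelium reached it.

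Across all 6 libraries no subunit gene passed the test. Of the 35 members that passed the filter on low counts, edgeR's quasi-likelihood test called 0 at an adjusted p under 0.05, in a fit that called 0% of 17743 genes. The lowest adjusted p of a member was 0.911, and 1 member, PSMD9, had an unadjusted p under 0.05. DESeq2 called 0 members too, in a fit that called 0.107% of genes as higher, and limma-voom called 0. The log2 fold change of bile acid over control was above 0 for 12 members and below 0 for 23, with a median of -0.12. The core particle had a median of -0.41 and the regulatory particle a median of -0.02. Over all genes tested the median was -0.01, and 48.8% of them had a fold change above 0. In the authors' deposited table, 0 of the 35 members with an adjusted p passed 0.05, against 0.129% of genes, and 14 members had a fold change above 0.

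Without control 2, nearly all subunit genes were slightly higher in the bile acid libraries, and still none passed edgeR's test. The log2 fold change was above 0 for 34 of 35 members, including all 15 tested core genes and all 17 genes of the regulatory particle, in a fit where 50.8% of genes were above 0. The median was 0.26 over the members, 0.31 over the core particle and 0.24 over the regulatory particle, beside 0.0046 over all 18274 genes tested. Of the 5163 genes averaging 50 CPM or more, 3120 were above 0, with a median of 0.05. The summed general epithelial markers were higher in the same comparison, with KRT8 and KRT18 separate and EPCAM and CDH1 overlapping. The part of these markers in the members' values was not tested. The largest fold change was that of PSMB1, and the exception to the direction was PSMD9. edgeR called 0 members, with 0.306 as the lowest adjusted p, and it called 0.00547% of all genes as higher. Unadjusted p-values under 0.05 were found for 9 members, 8 of them higher and PSMD9 lower, in a fit where 5.02% of genes had such a p with a higher value and 2.96% with a lower one. DESeq2 called 1 member, PSMB1, where it called 0.886% of genes as higher. edgeR without a filter on low counts also called PSMB1 alone among the members, and 1.15% of genes as higher, and limma-voom called 0 members. RNA came from whole cultures, so a change in the cells present and a change in RNA per cell cannot be told apart.

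The separation of the libraries showed the same dependence. With all libraries, every bile acid value lay above every control value for 2 members (PSMC1 and PSMD7), a pattern found in 5.29% of all genes, and below for 1 member (PSMD9), a pattern found in 4.89%. Without control 2, all 3 bile acid values lay above both control values for 24 of 35 members, against 12.1% of all genes, and below both for PSMD9 alone, against 12.7% of all genes. The 24 were 12 core genes, 11 genes of the regulatory particle and the chaperone PSMD10. Of the 5163 genes averaging 50 CPM or more, 896 had all 3 bile acid values above both controls and 446 below both. Set against the mean of controls 1 and 3, the median member stood 0.21, 0.27 and 0.23 higher on the log2 scale in bile acid 1, 2 and 3. Controls 1 and 3 differed from each other by a median of 0.09 over the members, less than the 0.19 found over all genes. The set of all genes holds many with fewer counts than most members, and levels were not matched.

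**Figure D1:**
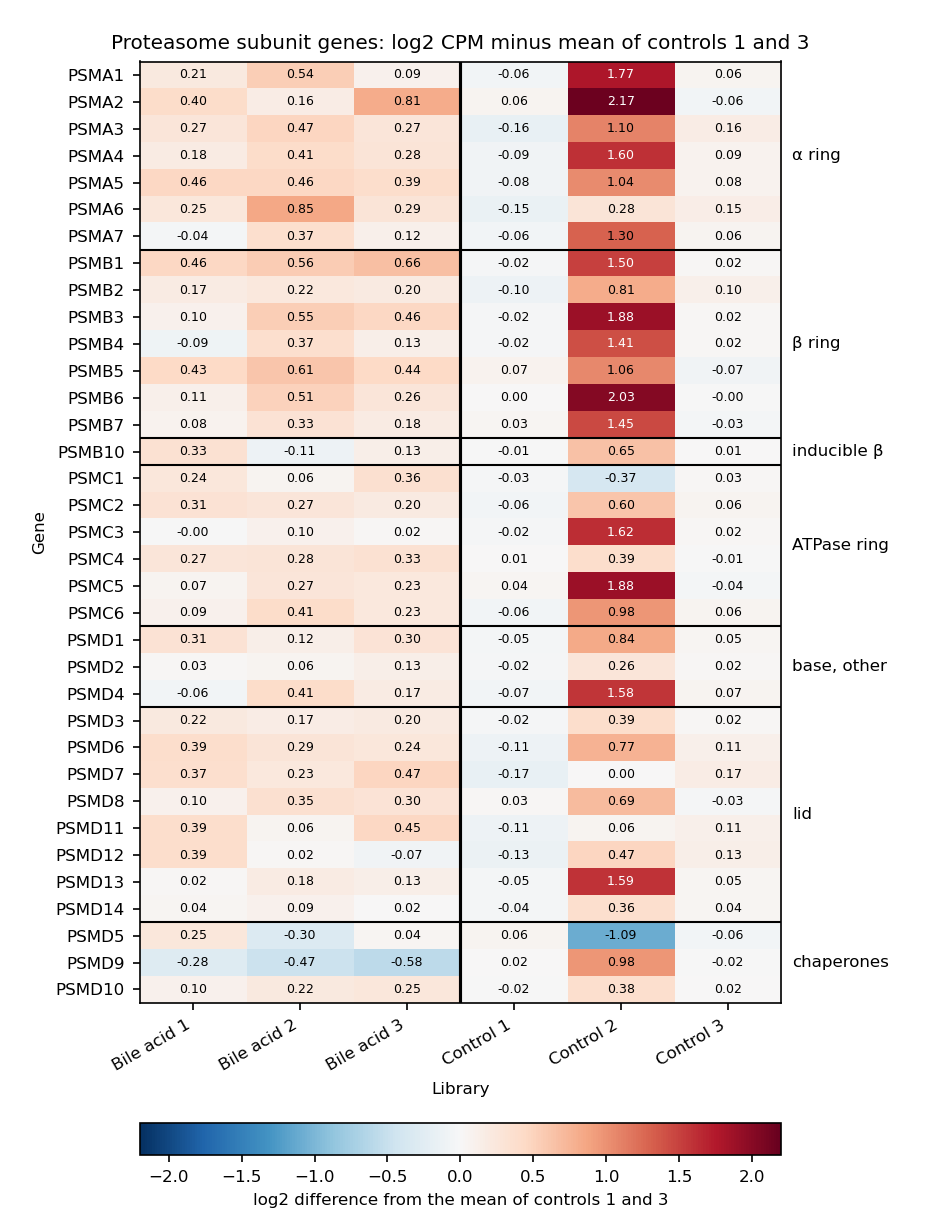
Log2 CPM (counts per M, TMM-scaled) of each of the 35 tested members minus the mean log2 CPM of controls 1 and 3, by library, with genes grouped by role. Bile acid columns are mostly pale red, with median values of 0.21, 0.27 and 0.23, while the control 2 column is the darkest, with a median of 0.98.

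Promoter windows bear on whether the members share the letters through which the factors named above act. RefSeq windows of GRCh38.p14, from 250 bases before to 50 bases after the start, were matched for 32 of the 37 members; PSMA7, PSMB1, PSMB6, PSMB7 and PSMD4 had no entry. The antioxidant response core TGACNNNGC, on either strand, was found in 7 member windows (PSMB3, PSMC4, PSMD1, PSMD3, PSMD5, PSMD9 and PSMD12), which is 21.88% of them, against 13.35% of all 35116 windows. The related element TGACTCA was found in PSMD9 alone, against 4.949% of all windows. CCAAT boxes were in 16 member windows, 50% of them, against 34.61% of all windows, and the heat shock pair GAANNTTC was in 0 member windows, against 6.769%. These matches describe letters and not binding. The 4 sequences printed here are the 250 bases before the start of a core gene with both kinds of element (PSMB3), a core gene with CCAAT boxes alone (PSMA5), a lid gene with the antioxidant core alone (PSMD12) and the gene that went against the others (PSMD9). Capitals mark CCAAT, TGACNNNGC and TGACTCA on either strand.
PSMB3, chr17:38752491-38752740, plus strand: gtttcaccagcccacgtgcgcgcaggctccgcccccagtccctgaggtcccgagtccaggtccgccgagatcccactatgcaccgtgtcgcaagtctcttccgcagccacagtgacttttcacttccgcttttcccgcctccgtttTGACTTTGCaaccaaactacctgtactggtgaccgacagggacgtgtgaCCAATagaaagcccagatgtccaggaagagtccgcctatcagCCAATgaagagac
PSMA5, chr1:109426449-109426698, minus strand: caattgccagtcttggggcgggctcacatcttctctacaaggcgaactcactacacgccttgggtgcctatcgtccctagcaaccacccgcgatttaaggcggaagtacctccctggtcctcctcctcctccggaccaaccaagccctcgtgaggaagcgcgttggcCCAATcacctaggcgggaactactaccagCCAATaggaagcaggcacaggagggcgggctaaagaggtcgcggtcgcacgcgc
PSMD12, chr17:67366578-67366827, minus strand: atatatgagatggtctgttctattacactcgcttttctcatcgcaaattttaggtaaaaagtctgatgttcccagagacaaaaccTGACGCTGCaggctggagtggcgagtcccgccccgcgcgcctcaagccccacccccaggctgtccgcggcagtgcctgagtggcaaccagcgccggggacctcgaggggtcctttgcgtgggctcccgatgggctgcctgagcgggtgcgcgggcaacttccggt
PSMD9, chr12:121888540-121888789, plus strand: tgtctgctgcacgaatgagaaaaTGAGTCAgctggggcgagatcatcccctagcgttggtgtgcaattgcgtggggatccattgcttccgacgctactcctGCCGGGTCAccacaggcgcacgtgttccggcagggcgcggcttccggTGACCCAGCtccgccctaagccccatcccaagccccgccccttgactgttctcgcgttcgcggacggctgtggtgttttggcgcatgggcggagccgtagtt

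Of the β subunits with an active site, PSMB5 carries the chymotrypsin-like site. Its gene (chr14:23016543-23035230 in GRCh38) had 79.9, 90.1 and 80.3 CPM in the bile acid libraries, against 62.3, 123 and 56.2 CPM in the controls. All 3 bile acid values lay between control 2 and the other controls, so the groups overlapped with control 2 and were separate without it. The log2 fold change was 0.05 (SE 0.31) with all libraries and 0.50 (SE 0.14) without control 2, where the unadjusted edgeR p was 0.0036 and the adjusted p 0.364.

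PSMB6, the caspase-like site, had 131, 173 and 146 CPM in the bile acid libraries, against 122, 496 and 121 CPM in the controls. PSMB7, the trypsin-like site, had 146, 173 and 156 CPM in the bile acid libraries, against 141, 378 and 135 CPM in the controls. For both genes control 2 was the highest library by far and the bile acid values lay just above controls 1 and 3. The log2 fold change of PSMB6 was -0.71 (SE 0.55) with all libraries and 0.31 (SE 0.15) without control 2. That of PSMB7 was -0.46 (SE 0.41) with all libraries and 0.21 (SE 0.14) without control 2. The adjusted edgeR p of both was 0.655 or higher in either fit.

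PSMB10 replaces PSMB7 in the immunoproteasome, a form with altered cutting that interferon induces. It was low, with 4.74, 3.47 and 4.14 CPM in the bile acid libraries, against 3.74, 5.94 and 3.79 CPM in the controls, and the groups overlapped with and without control 2. The fold change of PSMB10 was -0.12 (SE 0.31) on the log2 scale with all libraries and 0.14 (SE 0.27) without control 2. Its partners PSMB8 and PSMB9, which are outside the members, had log2 fold changes of 0.01 (SE 0.13) and 0.15 (SE 0.14) without control 2 and of -0.30 (SE 0.25) and -0.66 (SE 0.46) with it. PSMB11, the form of thymic epithelium, had 4 counts in bile acid 3, 6 counts in control 1 and 0 in the others. PSMA8, the form of the testis, had 0 counts in the bile acid libraries and 4 counts in control 3 alone. A library with 0 counts allowed up to 0.105 to 0.143 CPM (3 counts of its total, counting error only), so neither gene could be compared.

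PSMB1 is a β subunit without an active site, and its gene (chr6:170535117-170553341) gave the smallest p of all members without control 2. It had 257, 275 and 296 CPM in the bile acid libraries, against 185, 529 and 190 CPM in the controls. Controls 1 and 3 lay close together, every bile acid library lay above them, and control 2 lay above all. On the log2 scale the fold change was -0.13 (SE 0.42) with all libraries and 0.57 (SE 0.14) without control 2. In that fit the edgeR adjusted p was 0.306 and the DESeq2 adjusted p 0.0126. Over the 14 alternative settings without control 2 its fold change ran between 0.48 and 0.62, 3 settings called it, and its adjusted p ran between 0.0126 and 0.999. The settings that called it included the replicate block with the length trend removed, where bile acid 2 stood alone in its block.

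PSMB3, another structural β subunit, had 151, 205 and 193 CPM in the bile acid libraries, against 139, 518 and 142 CPM in the controls. Its log2 fold change was -0.54 (SE 0.52) with all libraries and 0.39 (SE 0.16) without control 2, with an edgeR adjusted p of 0.911 and 0.572. PSMB2 and PSMB4 had log2 fold changes of -0.13 (SE 0.26) and -0.48 (SE 0.41) with all libraries and of 0.20 (SE 0.13) and 0.16 (SE 0.16) without control 2. The β ring as a group had 1 of 7 fold changes above 0 with all libraries and 7 of 7 without control 2, with medians of -0.46 and 0.31.

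The α ring shapes the gate. PSMA5 (chr1:109399031-109426427) had 98.6, 98.4 and 93.7 CPM in the bile acid libraries, against 67.6, 147 and 75.9 CPM in the controls. The bile acid values were close together and lay above controls 1 and 3 and below control 2. For PSMA5 the log2 fold change was 0.0018 (SE 0.31) with all libraries and 0.44 (SE 0.13) without control 2, where the unadjusted edgeR p was 0.0064 and the adjusted p 0.422. PSMA7, the most abundant member, had 435, 579 and 486 CPM in the bile acid libraries, against 430, 1103 and 466 CPM in the controls, and its groups overlapped in either case. For PSMA7 the log2 fold change was -0.41 (SE 0.38) with all libraries and 0.17 (SE 0.16) without control 2. PSMA3 and PSMA4 had log2 fold changes of -0.13 (SE 0.33) and -0.45 (SE 0.44) with all libraries and of 0.34 (SE 0.15) and 0.30 (SE 0.14) without control 2. PSMA1, PSMA2 and PSMA6, which had few counts, had -0.56 (SE 0.50), -0.63 (SE 0.64) and 0.39 (SE 0.30) with all libraries and 0.30 (SE 0.20), 0.51 (SE 0.34) and 0.50 (SE 0.29) without control 2. Over the α ring, 2 of 7 fold changes were above 0 with all libraries and 7 of 7 without control 2, with medians of -0.41 and 0.34.

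**Figure D2:**
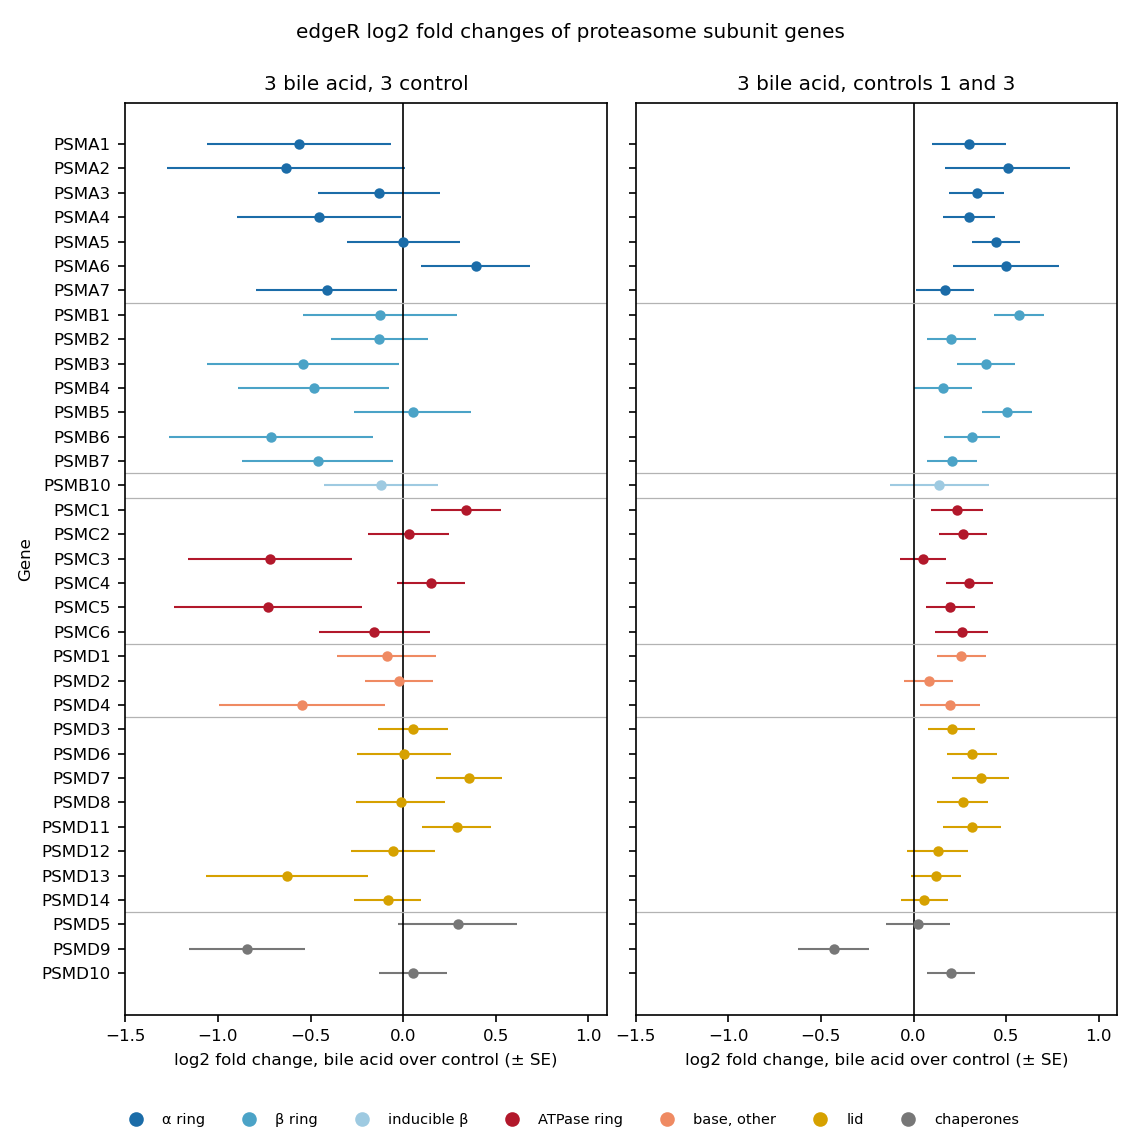
Log2 fold changes of bile acid over control from edgeR, with standard errors as bars, for the 35 tested members in order of role, with all 6 libraries on the left and without control 2 on the right. The left points spread on both sides of 0 (12 above, 23 below), with wide bars in the core particle, while on the right 34 of 35 lie above 0 and PSMD9 lies at -0.43.

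The ATPase ring, the motor of the base, held members that behaved quite differently in control 2. PSMC4 had 109, 110 and 114 CPM in the bile acid libraries, against 91.3, 119 and 90.4 CPM in the controls. Its bile acid values lay above controls 1 and 3 and under control 2, and its log2 fold change was 0.15 (SE 0.18) with all libraries and 0.30 (SE 0.13) without control 2. PSMC1 (chr14:90256495-90275429) had 109, 95.8 and 118 CPM in the bile acid libraries, against 89.9, 70.9 and 93.8 CPM in the controls. It was one of 2 members with all bile acid values above all controls, and control 2 was its lowest library. Its log2 fold change was 0.34 (SE 0.19) with all libraries and 0.24 (SE 0.14) without control 2, with an edgeR adjusted p of 0.911 and 0.742.

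PSMC3 had 120, 129 and 122 CPM in the bile acid libraries, against 119, 371 and 122 CPM in the controls. PSMC5 had 107, 123 and 120 CPM in the bile acid libraries, against 105, 376 and 99.2 CPM in the controls. In both genes control 2 alone lay far above the rest. The log2 fold change of PSMC3 was -0.72 (SE 0.45) with all libraries and 0.05 (SE 0.13) without control 2, and that of PSMC5 was -0.73 (SE 0.51) and 0.20 (SE 0.13). PSMC2 and PSMC6 had log2 fold changes of 0.03 (SE 0.22) and -0.15 (SE 0.30) with all libraries and of 0.27 (SE 0.13) and 0.26 (SE 0.14) without control 2. Over the ATPase ring, 3 of 6 fold changes were above 0 with all libraries and 6 of 6 without control 2, with medians of -0.06 and 0.25. Of the other base subunits, PSMD1 and PSMD2 form the scaffold and PSMD4 is a ubiquitin receptor, and their log2 fold changes were -0.09, -0.02 and -0.55 with all libraries and 0.26, 0.08 and 0.20 without control 2.

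The lid holds the deubiquitinase PSMD14 and its partner PSMD7. PSMD7 (chr16:74296775-74306288) had 62.5, 56.8 and 66.9 CPM in the bile acid libraries, against 42.9, 48.3 and 54.4 CPM in the controls. Control 2 lay between the other controls, so the 3 bile acid libraries were the highest of the 6. For PSMD7 the log2 fold change was 0.35 (SE 0.18) with all libraries and 0.36 (SE 0.15) without control 2, with an edgeR adjusted p of 0.911 and 0.590. PSMD14 had a log2 fold change of -0.08 (SE 0.18) with all libraries and 0.06 (SE 0.13) without control 2.

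PSMD11, whose level is known to limit assembly in stem cells, had 175, 140 and 184 CPM in the bile acid libraries, against 124, 139 and 145 CPM in the controls. Bile acid 2 lay among the controls and the other bile acid libraries lay above them. For PSMD11 the log2 fold change was 0.29 (SE 0.19) with all libraries and 0.32 (SE 0.16) without control 2. PSMD6 had 94.0, 87.6 and 84.6 CPM in the bile acid libraries, against 66.5, 122 and 77.0 CPM in the controls. It separated the groups only once control 2 was left out, with log2 fold changes of 0.0034 (SE 0.25) with all libraries and 0.32 (SE 0.14) without it. The lid subunits PSMD3, PSMD8, PSMD12 and PSMD13 had log2 fold changes of 0.05, -0.01, -0.05 and -0.63 with all libraries, and of 0.21, 0.27, 0.13 and 0.12 without control 2. Over the lid, 4 of 8 fold changes were above 0 with all libraries and 8 of 8 without control 2, with medians of -0.01 and 0.24.

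The 3 base chaperones, which are not in the finished particle, did not move together. PSMD9 (chr12:121888731-121918297) had 11.6, 10.1 and 9.39 CPM in the bile acid libraries, against 14.2, 27.8 and 13.9 CPM in the controls. All bile acid values lay below all controls. For PSMD9 the log2 fold change was -0.84 (SE 0.31) with all libraries and -0.43 (SE 0.19) without control 2, with unadjusted edgeR p-values of 0.029 and 0.045 and adjusted p-values of 0.911 and 0.610. In the authors' deposited table PSMD9 had a p of 0.0216 and an adjusted p of 0.977. PSMD5 had 64.6, 44.1 and 56.0 CPM in the bile acid libraries, against 56.6, 25.5 and 52.1 CPM in the controls, so the groups overlapped. For PSMD5 the log2 fold change was 0.29 (SE 0.32) with all libraries and 0.02 (SE 0.17) without control 2. PSMD10, also called gankyrin, had a log2 fold change of 0.05 (SE 0.18) with all libraries and 0.20 (SE 0.13) without control 2.

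Control 2 did not raise the members evenly. It was the highest of the 6 libraries for 30 of 35 members, against 36.4% of all genes, and the lowest for 2 (PSMC1 and PSMD5), against 41.8% of all genes. On the log2 scale it lay above the mean of controls 1 and 3 by a median of 1.41 in the core particle and 0.60 in the regulatory particle, beside -0.08 over all genes. In linear CPM it was 4.08 times their mean for PSMB6, 3.69 times for PSMB3 and 3.68 times for PSMC5. In the same ATPase ring it was 1.31 times their mean for PSMC4 and 0.773 times for PSMC1, and in the lid it was 3.00 times for PSMD13 and 0.993 times for PSMD7. Subunits that are built into 1 particle in equal number thus differed several-fold in how far they departed in this library.

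The excess in control 2 went along with a short exonic length. This length covers all annotated exons of a gene and is not that of its transcripts. Among the 5916 shortest genes tested (up to 3142 bp of exon), the median log2 difference of control 2 from controls 1 and 3 was 0.48. Among the 5913 longest (over 5985 bp) it was -0.52. The 15 members in the short class had a median of 1.30, the 12 in the middle class 0.83 and the 8 in the long class 0.57. By their medians, members thus stood above the tested genes of like exonic length in each class, but levels were not matched within classes. Genes of the β ring had a median length of 1787 bp, those of the regulatory particle of 4964 bp and those of the α ring of 5336 bp. The median log2 excess in control 2 was 1.45 in the β ring, 0.60 in the regulatory particle and 1.30 in the α ring. The α ring was thus no shorter than the regulatory particle and still had the larger excess. Bile acid 2 showed a trend with length of the same sign as control 2. Over the 5163 genes averaging 50 CPM or more, Spearman's rho between length and the difference from controls 1 and 3 was -0.56 in bile acid 2 and -0.57 in control 2, across genes that share these libraries. Without control 2 the member medians were 0.27, 0.21 and 0.28 from the short to the long class, beside 0.04, 0.02 and -0.03 over all genes. With the length trend removed from each library, the core median with all libraries was -0.24 and the regulatory median -0.12, and the member median without control 2 was 0.25.

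**Figure D3:**
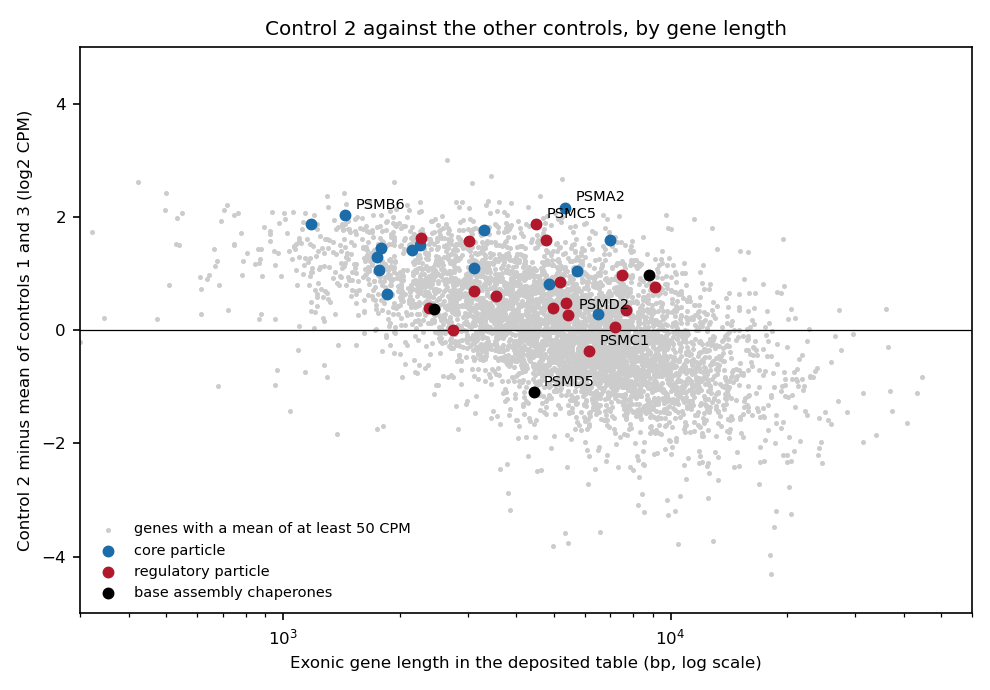
Difference in log2 CPM between control 2 and the mean of controls 1 and 3 (vertical) against the exonic length of the gene in bp (horizontal, log scale), for genes averaging 50 CPM or more in grey, core genes in blue, regulatory genes in red and base chaperones in black. The grey cloud slopes down with length (rho -0.57 over 5163 genes), and most coloured points lie above it, with PSMB6 at 2.03 and PSMD5 at -1.09.

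The spread within groups shows the same. The median standard deviation of log2 CPM over the members was 0.12 in the bile acid group and 0.57 in the control group, beside 0.23 and 0.47 over all genes. In linear CPM the coefficient of variation within the bile acid group ran from 1.81% (PSMB2) to 25.1% (PSMA6), with a median of 8.21%. In the control group it ran from 7.84% (PSMD11) to 94.9% (PSMA2), with a median of 42.4%.

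Levels per length were far from equal among subunits. FPKM divides counts by the length of all annotated exons of a gene, and over the 5 libraries without control 2 the mean ran from 236 FPKM for PSMA7 to 0.367 FPKM for PSMA2 among the tested members, a ratio of 642. After PSMA7 came PSMB3 with 121 FPKM, PSMB4 with 110 FPKM and PSMB1 with 91.5 FPKM. Median levels were 82.3 FPKM in the β ring, 69.3 FPKM in the base subunits outside the ATPase ring, 24.4 FPKM in the ATPase ring, 16.8 FPKM in the lid and 13.0 FPKM in the α ring, beside 3.29 FPKM over all genes tested. The ratio of 642 and the α ring median take in genes with uncertain levels, described below. Neighbours in the order of the tested members by mean FPKM were mostly not separable. In 6 of the 34 pairs of neighbours the ranges over the 5 libraries did not overlap. Summed FPKM of the core particle was 1.69, 2.01 and 1.81 times that of the regulatory particle in the bile acid libraries, and 1.73, 2.56 and 1.72 times in the controls. Bile acid 1 and 3 lay near controls 1 and 3 in this ratio, with bile acid 2 and control 2 above them.

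The 5 lowest of the tested members by FPKM were PSMA1, PSMB10, PSMD9, PSMA6 and PSMA2, with means of 3.67, 1.85, 1.16, 0.613 and 0.367 FPKM. They are also the 5 members whose coding sequence is overlapped on the same strand by another gene of GENCODE 29, by 88.6% for PSMA1, 58.3% for PSMB10, 58.7% for PSMD9, 70.4% for PSMA6 and 97.1% for PSMA2. The other 30 tested members had no such overlap and levels of 7.72 FPKM or more. Reads that fall on 2 genes can be left out or split by a counter, and the labels do not say how they were treated. The levels of these 5 genes are therefore uncertain. Through them, so are the statement on PSMD9, the ratio of 642 and the α ring median of 13.0 FPKM. The α ring genes without such an overlap, PSMA7, PSMA3, PSMA4 and PSMA5, had 236, 37.5, 33.1 and 13.0 FPKM. The part of the overlap in these levels was not tested. Among the 30 tested members without a same-strand overlap, all 30 log2 fold changes were above 0 without control 2, with a median of 0.25. On the opposite strand, coding sequence was overlapped by 47.7% in PSMC1 (by NRDE2), 28.4% in PSMD7, 10.5% in PSMC5 and 6.53% in PSMD11, which matters if reads were not counted by strand. Pseudogenes named after members held 0.134% as many counts as the members, but this share was not even. Over all libraries PSMA6P1 had 186 counts against 711 for PSMA6, and PSMC1P1 had 822 counts against 15022 for PSMC1.

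**Figure D4:**
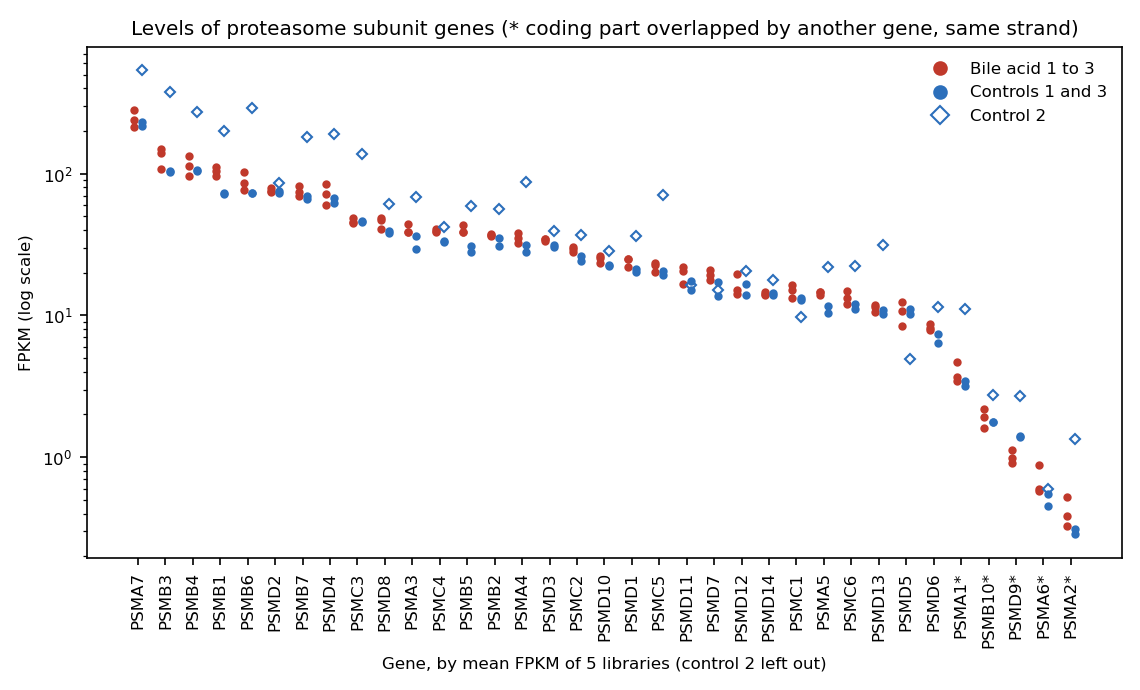
FPKM of the 35 tested members (vertical, log scale) in each library, ordered by the mean of the 5 libraries without control 2, with bile acid libraries in red to the left of each gene and controls in blue to the right, control 2 as open diamonds. Levels run from 236 to 0.367 FPKM, the 5 genes marked with an asterisk for an overlapped coding sequence stand at the low end, and control 2 is the highest point for most genes.

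Of 45 other genes of the ubiquitin-proteasome pathway, all tested, edgeR called 0 with all libraries and 0 without control 2. Fold changes were above 0 for 25 with all libraries and for 34 without control 2, with medians of 0.05 and 0.10, so their median without control 2 was lower than that of the subunits. NFE2L1, the main activator of subunit genes, had 361, 347 and 334 CPM in the bile acid libraries, against 381, 223 and 379 CPM in the controls. Without control 2 its bile acid values lay below both controls, with a log2 fold change of -0.12 (SE 0.13), and with all libraries it was 0.08 (SE 0.25). Transcript levels do not show its processing.

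NFE2L2 had 141, 117 and 110 CPM in the bile acid libraries, against 70.7, 90.2 and 94.0 CPM in the controls, with no overlap. Its log2 fold change was 0.53 (SE 0.20) with all libraries and 0.59 (SE 0.17) without control 2, with edgeR adjusted p-values of 0.911 and 0.397. Over the 14 alternative settings without control 2 the adjusted p of NFE2L2 ran between 0.0247 and 0.999, and 2 settings called it. They were the one without a filter on low counts and the replicate block with the length trend removed, which called 1.15% and 2.53% of genes as higher. MAFF, MAFG and MAFK, small Maf partners of NFE2L2, also had all bile acid values above all controls. This pattern was found in 7 of the 45 pathway genes, against 5.29% of all genes. MAFF had 59.2, 14.0 and 13.3 CPM in the bile acid libraries, against 9.49, 7.73 and 8.22 CPM in the controls. Bile acid 1 was far above the other bile acid libraries, and the log2 fold change was 1.76 (SE 0.59) with all libraries and 1.71 (SE 0.57) without control 2, with edgeR adjusted p-values of 0.911 and 0.485. Without control 2, MAFF was called in 3 of the 14 alternatives, namely the same 2 and the replicate block alone, which called 1.7% of genes as higher. The adjusted p of MAFF ran between 3.29e-12 and 0.999. In the block settings bile acid 2 stood alone in its block, so fold changes rested on replicates 1 and 3 of each group. MAFG had 63.3, 38.2 and 35.3 CPM in the bile acid libraries, against 27.2, 29.6 and 29.1 CPM in the controls, with a log2 fold change of 0.67 (SE 0.26) with all libraries and 0.71 (SE 0.24) without control 2. The 2 settings that called NFE2L2 called MAFG too, where its adjusted p over the alternatives ran between 0.0113 and 0.999.

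SQSTM1, the p62 receptor that carries ubiquitinated cargo to autophagy, had the smallest p of this list in both fits. It had 194, 199 and 212 CPM in the bile acid libraries, against 121, 112 and 149 CPM in the controls, with no overlap. Its log2 fold change was 0.66 (SE 0.19) with all libraries and 0.59 (SE 0.14) without control 2, with edgeR adjusted p-values of 0.911 and 0.330. DESeq2, which called 0.886% of genes as higher, called SQSTM1 without control 2, with an adjusted p of 0.0271. Of the 14 alternative settings without control 2, 3 called SQSTM1, and its adjusted p ran between 0.0205 and 0.999. Beside DESeq2 they were the one without a filter on low counts and the replicate block with the length trend removed. These called 1.15% and 2.53% of genes as higher, and in the block setting bile acid 2 stood alone in its block.

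UBB, a polyubiquitin gene, had a log2 fold change of 0.29 (SE 0.24) with all libraries and 0.42 (SE 0.19) without control 2. VCP, the segregase that pulls ubiquitinated proteins out of complexes, had 267, 242 and 297 CPM in the bile acid libraries, against 181, 287 and 196 CPM in the controls. Its log2 fold change was 0.28 (SE 0.23) with all libraries and 0.52 (SE 0.14) without control 2. There 1 of the 14 alternatives called VCP, the replicate block with the length trend removed (adjusted p 0.0302), which called 2.53% of genes as higher. The subunits of the alternative PA28 cap, PSME1 and PSME2, had log2 fold changes of 0.26 (SE 0.13) and 0.43 (SE 0.13) without control 2 and of -0.31 (SE 0.36) and -0.46 (SE 0.49) with it.

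**Figure D5:**
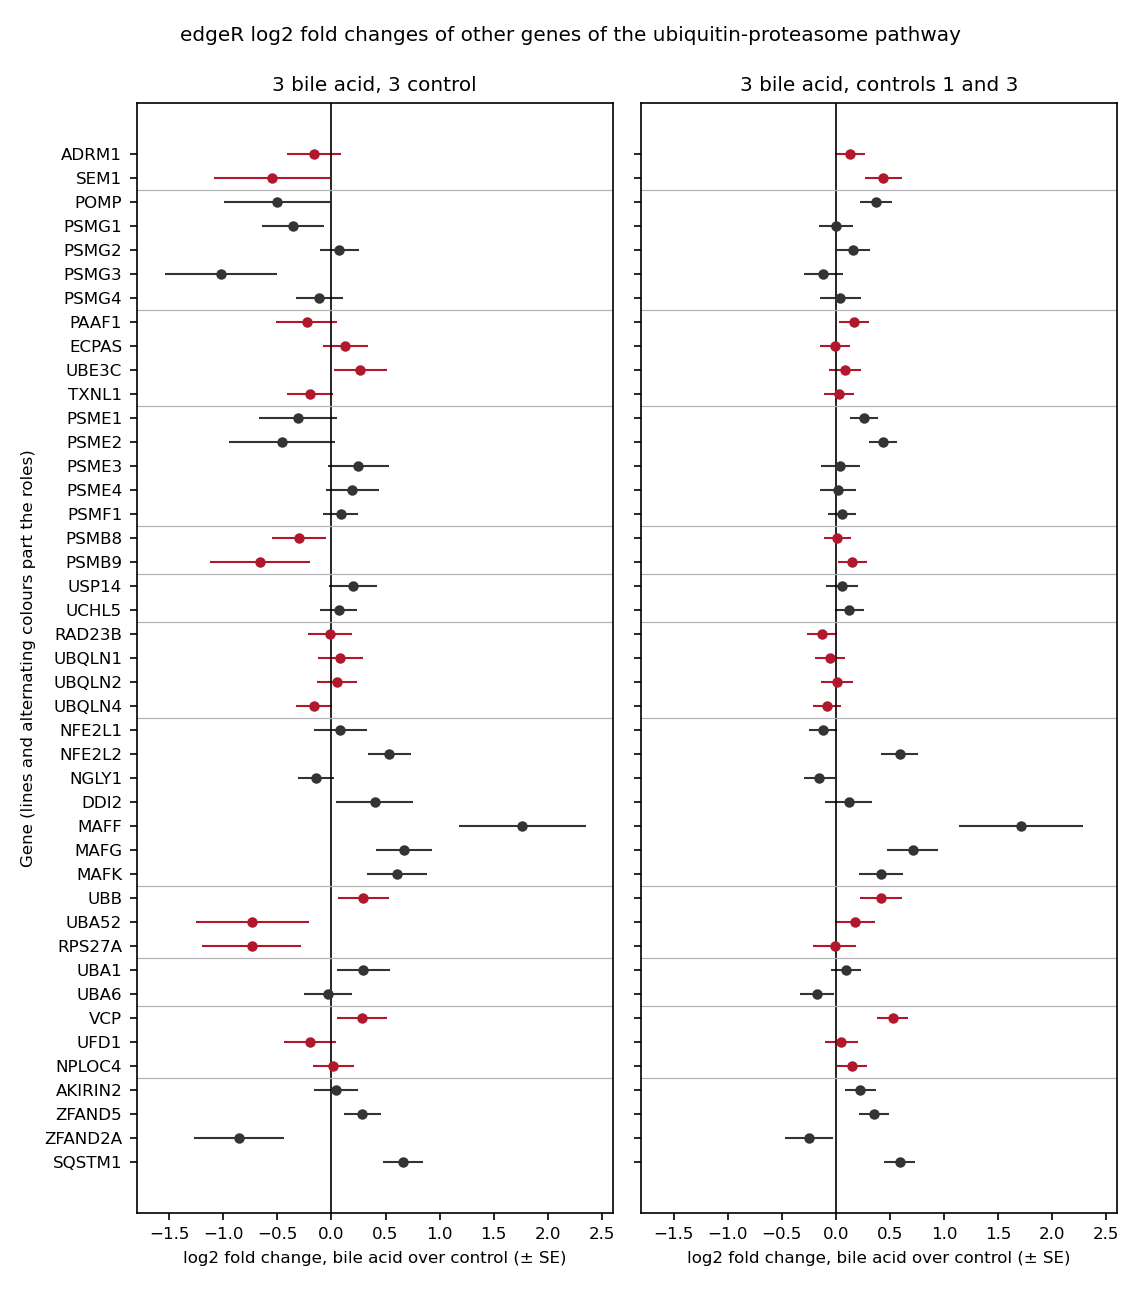
Log2 fold changes of bile acid over control from edgeR, with standard errors as bars, for pathway genes outside the members, with all 6 libraries on the left and without control 2 on the right. On the right MAFF lies at 1.71, SQSTM1 and NFE2L2 at 0.59 and VCP at 0.52, while the shuttle factors UBQLN1, UBQLN2 and UBQLN4 lie at -0.06, 0.01 and -0.09.

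Other complexes of fixed composition were set beside the proteasome, with no test between the lists, so nothing is called particular to it. The 8 genes of the TRiC chaperonin, which folds new proteins, all had fold changes above 0 without control 2, with a median of 0.36, and 6 of the 8 did with all libraries, with a median of 0.11. Of 85 tested genes of cytosolic ribosomal proteins, 78 were above 0, with a median of 0.15, and with all libraries their median was -0.52. In control 2 the ribosomal genes lay 1.48 above controls 1 and 3 on the log2 scale and the TRiC genes 0.40, with the proteasome members between them at 0.98. All 3 lists were set against the same control libraries.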

How the data were processed

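RNA of 6 Het1A libraries, 3 bile acid and 3 control, was sequenced with paired reads of 150 bp, per the labels' protocols. The submitters' processing notes name GRCh38, HISAT2 2.0.5, featureCounts and DESeq2, and the strand setting of the counting is not given in the sources used. The deposited count table holds whole read counts per gene, and its gene ends and lengths equal those of GENCODE 29 for 100% of genes. The deposited FPKM values are the authors' own, scaled by gene length and library. A further deposited signal, normalized counts, holds reads divided by a size factor. In each library 100% of its values came out as whole reads (tolerance 0.001). edgeR on these recovered reads called 0 genes. The deposited comparison gives log2 fold changes and p-values per gene, per the file headers.

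Groups were taken from the labels. Counts were tested with edgeR 4.0.16 (R 4.3.3) by the quasi-likelihood test, with TMM factors, filterByExpr and Benjamini-Hochberg adjustment over all genes tested (threshold 0.05), without covariates, with and without control 2. Standard errors were derived from the F statistic, CPM are TMM-scaled, and log2 CPM use a prior count of 2. Lists were described by counts and medians, without a test. Alternatives were DESeq2 1.42.0, limma-voom and limma 3.58.1 on log2 FPKM, other scalings and filters, protein-coding genes alone, recovered reads, a replicate block, a length trend removed by lowess (span 0.3), and each library left out. The scripts were tested on simulated data. Members and lists were chosen with earlier results of these data known. Full values went to the active-site and tissue forms, the 6 members with the smallest p and the 3 with the lowest fold change in each fit, any member called by a tool, the highest and lowest by FPKM, fixed pathway genes and up to 4 with the smallest p in each fit. Some genes that this rule takes are not reported here. Other genes named were chosen after their values were seen. Intervals and limits from 0 counts cover counting error only.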

Additional observations from a re-analysis of the deposited data

How the results depend on the processing

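Leaving out 1 library at a time, the median log2 fold change of the members ran from -0.24 to 0.26, that of the core particle from -0.64 to 0.31 and that of the regulatory particle from -0.15 to 0.24, each highest without control 2. With all libraries, the member and core medians were above 0 only without control 2, in 1 of 21 settings, and the regulatory median also with library size alone (0.0163) and with no filter on low counts (0.0206). In the fit without control 2, the member medians stayed above 0 in all 15 settings. They moved to 0.17 with library size alone (regulatory particle 0.15), where the median of all genes was -0.08. With limma on log2(FPKM + 1), a scale that understates low genes, they moved to 0.16 (core 0.16, regulatory 0.17). Members called were 1 (PSMB1) without a filter on low counts, with DESeq2 and with the replicate block plus length trend removed, and 0 in the other settings. The settings that called PSMB1 called 1.15%, 0.886% and 2.53% of all genes as higher, in that order. With all libraries 0 members were called in every setting. The cause of these shifts was not tested. Signs of fold changes near 0 turned. With all libraries, PSMA5 turned to -0.0011 with RLE scaling, -0.0173 with upper-quartile scaling, -0.0161 with 1 CPM in at least 3 libraries, -0.0012 with DESeq2, -0.10 with the length trend removed and -0.0246 with protein-coding genes alone. PSMD6 turned to -0.0164 with upper-quartile scaling, -0.0132 with the 1 CPM filter, -0.24 with the length trend removed, -0.0893 with the replicate block too and -0.0207 with protein-coding genes alone. PSMB1 turned to 0.0467 with limma-voom, 0.0673 with the replicate block, 0.0486 with the length trend removed, 0.16 with both, 0.033 with limma on log2(FPKM + 1) and 0.0346 with limma on log2(FPKM + 0.1). PSMB10 turned to 0.0246 with the length trend removed and 0.0127 with the replicate block too. Without control 2, library size alone turned PSMC3 to -0.0342, PSMD5 to -0.0616 and PSMB8 to -0.0726. limma on log2(FPKM + 1) turned PSMD5 to -0.0333 and PSMB8 to -0.0316, the replicate block turned PSMB8 to -0.0068 and the length trend turned it to -0.0035. Leaving out 1 library at a time gave ranges across 0 for PSMA5 (-0.19 to 0.44), PSMA7 (-0.64 to 0.17), PSMB1 (-0.37 to 0.57), PSMB3 (-0.84 to 0.39), PSMB5 (-0.14 to 0.50), PSMB6 (-1.03 to 0.31), PSMB7 (-0.71 to 0.21), PSMB8 (-0.44 to 0.0128), PSMB9 (-0.94 to 0.15), PSMB10 (-0.23 to 0.14), PSMC3 (-0.98 to 0.0514), PSMC5 (-1.04 to 0.20), PSMD6 (-0.16 to 0.32), PSME1 (-0.54 to 0.26), PSME2 (-0.75 to 0.43) and NFE2L1 (-0.12 to 0.21), the last lowest and the others highest without control 2. With control 2 left out as well, PSMD5 ran from -0.11 to 0.16, with -0.0313 without control 3, and PSMB8 ran from -0.0277 without control 3 to 0.06, with -0.0074 without bile acid 2 and -0.0026 without bile acid 3.

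The replicate numbers are shared by the groups and were not taken to pair them. Deviations from the group means correlated at 0.31, 0.38 and 0.10 for numbers 1, 2 and 3, and bile acid 3 correlated best with control 1 (0.14). With the replicate block the median of the members was -0.05 with all libraries and 0.21 without control 2, and 0 members were called in both, while over all genes without control 2 the block called 311 as higher and 40 as lower, against 1 without it. With controls 1 and 3 alone as a reference, the spread of the control group rests on 2 libraries. In the block settings bile acid 2 then stood alone in its block. Fold changes there rested on replicates 1 and 3 of each group, and little spread was left to measure error.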
